A study of Mus musculus with 6 samples.

Results

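The nuclear-encoded subunits of the mitochondrial respiratory chain and ATP synthase were followed in T cells of the mouse after co-culture with ID8, an ovarian cancer line from the same species. Members were the protein-coding rows of the expression table whose symbols start with Nduf followed by a, b, c, s or v and a digit, are Sdha to Sdhd, or start with Uqcr, Cox4 to Cox8 or Atp5. This gave 85 of 54532 rows: 37 for complex I, 4 for complex II, 8 for complex III, 18 for complex IV and 18 for ATP synthase. The measure is FPKM, the fragments on a gene divided by its length and by a library factor.

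In the cisplatin group, 3 T-cell libraries came from co-cultures with ID8 cells that had been pretreated with cisplatin, at 40 μM by the labels. In the control group, 3 libraries came from co-cultures with ID8 cells given PBS. The T cells of both groups were isolated from spleens of C57BL/6 mice, kept in IL-2 and pre-activated with beads carrying antibodies to CD3 and CD28, and no genetic change was made in them. The column names WT and CIS stand for these treatments. Nothing in the labels says whether replicates came from separate mice or cultures, so p-values measure the spread between these libraries, which may be technical.

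The respiratory chain passes electrons from NADH through complex I, and from succinate through complex II, to complexes III and IV, where oxygen is reduced. The proton gradient built along the way drives ATP synthase. Complexes I, III, IV and ATP synthase are assembled from subunits of both the nuclear and the mitochondrial genome, while complex II is wholly nuclear-encoded, and activated T cells use this machinery beside glycolysis.

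As rebuilt from the FPKM steps, the libraries held 30606569 to 32169496 reads on genes. All 26 T-cell identity markers were tested and higher, and their summed FPKM was 3415 to 3485 in cisplatin libraries and 2180 to 2308 in control libraries. Of 30 markers of ID8 cells, 25 were tested and all 25 were lower, with summed FPKM of 336.6 to 349.4 against 2094 to 2188. None of the 30 was at 0 in every library, and Krt7, Tagln, Myl9, Gpc3 and Mpzl2 lay below the filter. The 10 B-cell markers summed to 3638 to 3711 FPKM against 1701 to 1789, with 9 higher and 1 lower. The 12 myeloid markers summed to 129 to 147.7 FPKM against 65.69 to 70.67, with 8 of 10 tested higher, 1 lower, and S100a8 and S100a9 below the filter. Markers of tumour cells were thus detected in both groups, and marker levels of several cell types moved with the treatment. Their part in the results below was not tested, and in bulk RNA fewer cells of a type and less RNA per cell cannot be told apart.

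The members changed little. Of the 78 members with a mean of at least 0.5 FPKM, 16 were higher and 21 were lower in cisplatin libraries at an adjusted p under 0.05, and 41 did not pass (limma, Benjamini-Hochberg over 15874 genes). Among all tested genes, 27.5% were higher and 29% were lower, and the members' shares (16 and 21 of 78) were both below the background, the latter at 26.9%. The balance of the calls depended on the normalization, with 24 higher and 17 lower by voom on reads rebuilt from the FPKM and 20 higher and 18 lower after quantile normalization. All tested genes shifted likewise, with 35.4% higher and 26.9% lower by voom and 37.1% and 24.2% after quantile normalization. Without cisplatin replicate 2 the count of higher members was 10. In 39 of the 78 the groups did not overlap, 17 of them with cisplatin libraries higher and 22 lower, beside 31.9% and 32.3% of all tested genes. None of the members reached a fold change of 2 in limma, whatever the p, nor with voom, a size that 4.11% of all tested genes passed as higher and 12.8% as lower. Their median log2 fold change was -0.035, against 0.028 for all tested genes, and the median absolute value was 0.186 against 0.388. For tested protein-coding genes alone the median absolute value was 0.351. Of the 78 members, 72 averaged over 5 FPKM, against 8422 of the 15874 tested genes. The part of expression level in the smaller absolute values was not tested. The 95% intervals of all 78 tested members lay within 1 log2 unit of 0. For the 41 that did not pass they spanned -0.78 to 0.71, both bounds from Cox7a1, and 32 of the 41 intervals lay within 0.5.

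The direction of a member depends on the scale. With libraries centred on the mean log2 level of the T-cell identity genes, the median of all tested genes moved by -0.564 and that of the members became -0.599, so 0 members were higher, 71 were lower and 10 passed a fold change of 2. On that scale 4.9% of all tested genes were higher and 65.5% were lower, so most genes fell with the members. The 16 members that were higher in deposited FPKM then had log2 fold changes of -0.47 to -0.05. The centring moves every log2 fold change by the same amount. By construction, the distance of the members' median from that of all tested genes was thus -0.063 on both scales. Quantile normalization moved the median of all genes by 0.134. Directions below are those of the deposited FPKM, and each named rise of a member turned to a fall or to a value below 0 after that centring, as given beside it.

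**Figure D1:**
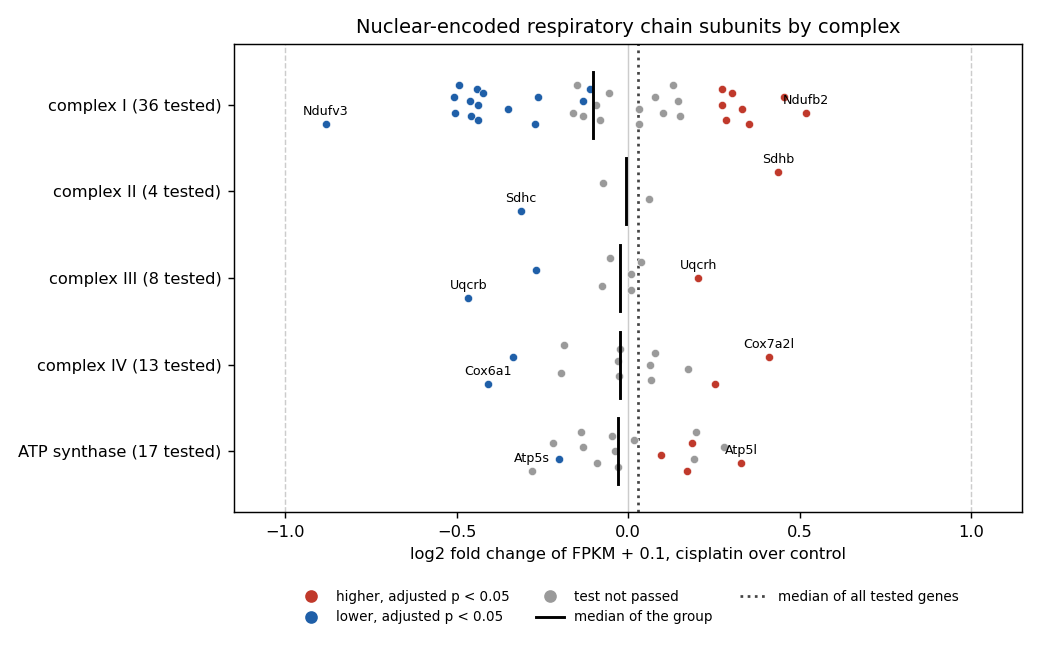
Log2 fold change of each of the 78 tested members (cisplatin over control, log2 of FPKM + 0.1), by complex. Points are genes, coloured by the limma call, black bars are medians of the complex, the dotted line is the median of all tested genes (0.028) and dashed lines mark a fold change of 2. All points lie between -0.88 (Ndufv3) and 0.52 (Ndufb2); after centring on T-cell identity genes all 78 lie below 0.

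Many nuclear genes of the respiratory chain are known targets of NRF1, GABP and YY1, and some genes of the cell's oxygen response carry HIF sites. Promoters of 66 of 84 member symbols were matched in RefSeq (GRCm38.p6). In the 250 bases before the start, the NRF1 core GCATGCGC was found on either strand in 8 of the 66 genes (12.1%), against 2.56% of 27025 genes with a promoter and 4.94% of 10042 tested genes. The ETS core of GABP, CCGGAAG, was in 12 (18.2%) against 7.83% and 15.6%. The YY1 core AAGATGGCG was in 1 (1.52%) against 0.71% and 1.44%. The HIF core ACGTG was in 13 (19.7%) against 18.5% and 24.8%. These are matches of letters, with no test. Since NRF1 is also a gene of the mitochondrial biogenesis list below, the matches are shown for the 5 members that both passed the test and held the NRF1 core. They were 3 of the 13 higher genes with a matched promoter (Sdhb, Ndufa11 and Atp5l) and 2 of the 15 lower ones (Ndufa8 and Cox6a1). The core was thus found with members that moved either way. Each stretch is written 5′ to 3′ on the strand of the gene, with the NRF1 core in capitals. For Ndufa11 and Cox6a1 the core and its reverse complement overlap, which lengthens the capitals. Sdhb (chr4:140961206-140961235, plus strand) and Ndufa8 (chr2:36049339-36049357, minus strand) are short because the core lies in an annotated exon. Both stretches lie within the annotated span of their own gene, which begins upstream of the start used here. The others are Ndufa11 (chr17:56717686-56717761, plus strand), Cox6a1 (chr5:115349041-115349129, minus strand) and Atp5l (chr9:44920905-44920992, minus strand).
Sdhb: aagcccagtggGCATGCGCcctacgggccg
Ndufa8: tcgctggagacGCATGCGC
Ndufa11: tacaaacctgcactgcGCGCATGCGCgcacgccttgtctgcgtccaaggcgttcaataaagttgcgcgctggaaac
Cox6a1: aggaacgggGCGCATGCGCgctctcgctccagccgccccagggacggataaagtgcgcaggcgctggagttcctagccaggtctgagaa
Atp5l: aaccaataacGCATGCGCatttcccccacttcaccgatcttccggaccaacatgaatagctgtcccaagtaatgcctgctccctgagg

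Complex I, the NADH dehydrogenase, held the most tested members and the most changed ones. Of 36 tested, 8 were higher and 15 were lower, with a median log2 fold change of -0.102. Its share of lower members was 41.7% beside the background of 29%, and its share of higher members was 22.2% beside 27.5%. Among tested protein-coding genes alone, a closer background, 35.3% were lower and 29.2% were higher. Centred on T-cell identity genes, its median was -0.666, with that of all genes at -0.536.

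The lowest log2 fold change of all members was that of Ndufv3, a small accessory subunit of the NADH-binding module (chr17:31520115-31531326, GRCm38). Its FPKM was 23.4, 22.9 and 22.6 in cisplatin libraries and 41.3, 43.0 and 43.1 in control libraries. All cisplatin libraries lay well below all control libraries, with little spread within each group. The log2 fold change was -0.88 (SE 0.03, adjusted p = 1.8e-06, limma), and leaving out any single library gave -0.90 to -0.87. Its transcripts shared no 50-base sequence with another annotated gene and its exons overlapped none.

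Further accessory members of complex I were lower. They were chosen for naming after their values were seen, except Ndufa8, which has the highest mean FPKM of complex I. Ndufa8, which carries cysteine motifs typical of proteins of the intermembrane space, was at 56.1, 60.0 and 54.0 FPKM in cisplatin libraries and 76.6, 85.4 and 80.4 in control libraries. The groups did not overlap, and the log2 fold change was -0.51 (SE 0.06, adjusted p = 0.00027). Ndufa7 (-0.50), Ndufb6 (-0.50), Ndufc1 (-0.46), Ndufb9 (-0.46), Ndufs4 (-0.44), Ndufs5 (-0.44) and Ndufa9 (-0.42) were also lower, followed by Ndufc2 (-0.35), Ndufb3 (-0.27) and Ndufb8 (-0.26). For Ndufb9, Ndufb3 and Ndufc2 the call rested on single libraries. The adjusted p of Ndufb9 was 0.064 to 0.079 without cisplatin replicate 1 or 3 or control replicate 2 or 3. That of Ndufb3 was 0.056 to 0.057 without cisplatin replicate 3 or control replicate 2 or 3, and that of Ndufc2 was 0.055 without cisplatin replicate 3.

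Ndufa4 is counted with complex I by its symbol, although its protein is now assigned to complex IV. It was at 24.6, 24.2 and 22.5 FPKM in cisplatin libraries and at 31.9, 32.4 and 32.4 in control libraries. The groups did not overlap, with a log2 fold change of -0.44 (SE 0.04, adjusted p = 0.00015). Its paralog Ndufa4l2, a known hypoxia-inducible gene, was not tested. It had 5, 2 and 0 reads in cisplatin libraries and 1, 6 and 30 in control libraries, so a single control library held most of its reads.

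Among core subunits of complex I, which carry the flavin and the iron-sulphur clusters, Ndufs8 was higher, while Ndufv2, Ndufs1, Ndufs7, Ndufs3 and Ndufv1 had small log2 fold changes. Ndufs8, which holds iron-sulphur clusters near the quinone site, was at 39.6, 44.0 and 37.1 FPKM in cisplatin libraries and 27.2, 30.7 and 30.0 in control libraries. Every cisplatin library lay above every control library. The log2 fold change was 0.45 (SE 0.07, adjusted p = 0.0020), and -0.11 after centring on T-cell identity genes. Ndufv2, which carries an iron-sulphur cluster of the NADH-binding module, was slightly lower (-0.11, adjusted p = 0.040). The call rested on single libraries, since leaving out any library but cisplatin replicate 1 gave Ndufv2 an adjusted p of 0.066 to 0.11. Ndufs1 (-0.13), Ndufs7 (-0.09), Ndufs3 (0.03) and Ndufv1 (0.08) did not pass the test.

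Of the 28 accessory subunits of complex I counted without Ndufa4 and Ndufa4l2, 7 were higher and 12 were lower, or 25% and 42.9% beside the background of 27.5% and 29%. For tested protein-coding genes alone that background was 29.2% and 35.3%. The largest value was that of Ndufb2, an accessory subunit of the membrane arm, at 1.2, 0.981 and 1.22 FPKM in cisplatin libraries and 0.710, 0.812 and 0.758 in control libraries. The groups did not overlap, but the level rested on 120 to 223 reads a library. The log2 fold change was 0.52 (SE 0.18, adjusted p = 0.046), -0.05 after centring on T-cell identity genes, and the adjusted p was 0.05 to 0.13 when each of the 6 libraries was left out, so the call was lost in each case.

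Further accessory members were higher, and they too were picked after their values were seen. Ndufa11, a membrane-arm subunit, was at 13.9, 13.6 and 12.4 FPKM in cisplatin libraries and 10.3, 10.5 and 10.4 in control libraries. The groups were clearly apart, with a log2 fold change of 0.35 (SE 0.05, adjusted p = 0.0014), or -0.21 after the centring. Ndufa3 (0.33, -0.23 after centring), Ndufb7 (0.30, -0.26), Ndufb10 (0.29, -0.28), Ndufb5 (0.27, -0.29) and Ndufa10 (0.27, -0.29) were also higher in deposited FPKM and below 0 after the centring. The adjusted p of Ndufa3 was 0.069 to 0.09 without cisplatin replicate 2 or 3 or control replicate 1. The remaining accessory members, Ndufa1, Ndufa2, Ndufa5, Ndufa6, Ndufa12, Ndufa13, Ndufb4, Ndufb11 and Ndufs6, did not pass the test and ranged from -0.16 to 0.15.

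**Figure D2:**
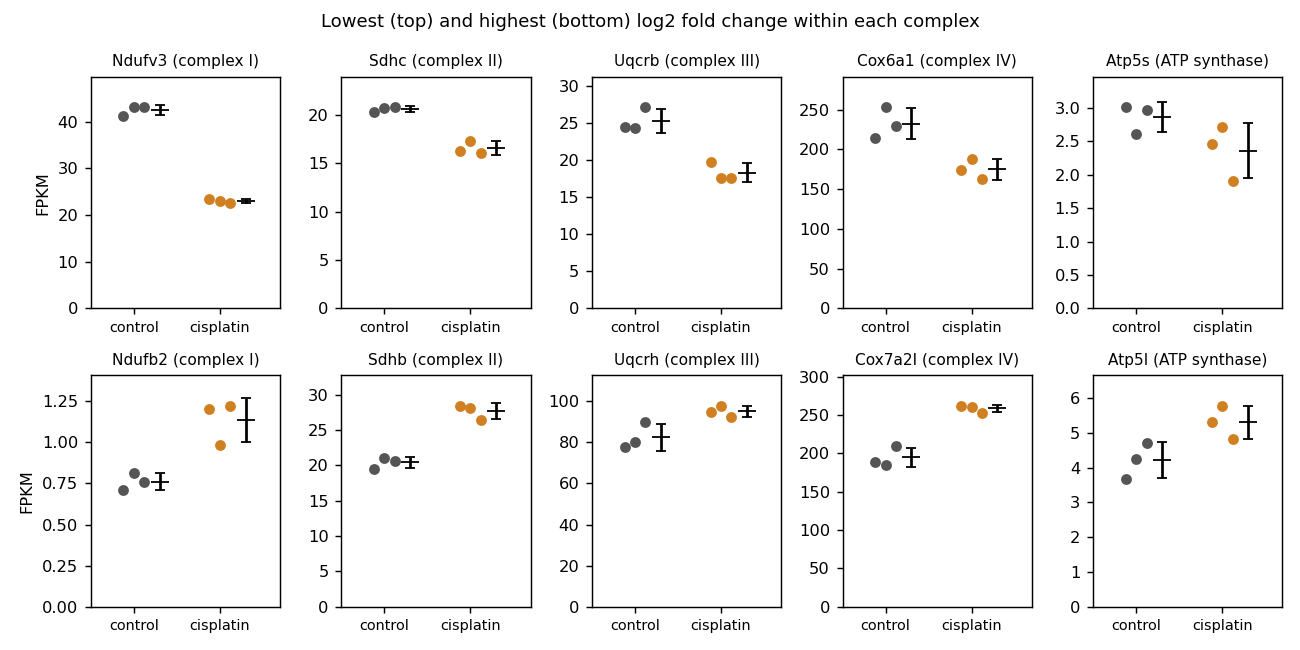
FPKM per library of the tested member with the lowest (top row) and highest (bottom row) log2 fold change in each complex. Points are libraries (3 control, 3 cisplatin), and the bar beside them is the mean with SD. In every panel except that of Atp5s the groups do not overlap; the genes of the bottom row lie below 0 on the log2 scale once libraries are centred on T-cell identity genes.

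Complex II, the succinate dehydrogenase shared by the respiratory chain and the TCA cycle, had a rise and a fall among its 4 subunits. Each was a share of 25%, near the 27.5% higher and 29% lower of all tested genes. Sdhb, the iron-sulphur subunit (chr4:140961203-140979193), was at 28.5, 28.2 and 26.4 FPKM in cisplatin libraries and 19.5, 21.1 and 20.6 in control libraries. Sdhc, a membrane anchor that binds haem (chr1:171127165-171150603), was at 16.3, 17.4 and 16.1 against 20.3, 20.8 and 20.8. In neither gene did the groups overlap, and they moved in opposite directions. The log2 fold changes were 0.44 for Sdhb (SE 0.05, adjusted p = 0.00026) and -0.31 for Sdhc (SE 0.04, adjusted p = 0.00068), and after centring on T-cell identity genes they were -0.13 and -0.88. Both calls held when any library was left out. Sdha, the flavin subunit, was at 0.06 (adjusted p = 0.12), and its cisplatin libraries (60.1 to 61.2 FPKM) all lay above the control libraries (56.7 to 59.4) without passing. Sdhd, the other anchor and the highest member of the complex by FPKM, was at -0.07 with overlapping groups (adjusted p = 0.33).

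In complex III, the cytochrome bc1 complex, 1 of 8 members was higher and 2 were lower, with a median log2 fold change of -0.023. These shares were 12.5% and 25%, beside 27.5% and 29% of all tested genes. The nuclear core subunits were near 0: Uqcrc1 at -0.05, Uqcrc2 at 0.01 and the Rieske iron-sulphur protein Uqcrfs1 at 0.01. Their 95% intervals ran from -0.13 to 0.03, from -0.12 to 0.13 and from -0.11 to 0.13. After centring on T-cell identity genes the 3 were at -0.62, -0.56 and -0.56.

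The changes in complex III lay among small subunits around this core. Uqcrb, which sits near the ubiquinone site, was at 19.7, 17.6 and 17.5 FPKM in cisplatin libraries and at 24.4, 24.3 and 27.1 in control libraries. It was lower in each cisplatin library, with a log2 fold change of -0.47 (SE 0.07, adjusted p = 0.0010). Of its 50-base sequences, 43.4% also occur in other annotated genes, 4 of them processed pseudogenes, so its counts are uncertain. Uqcrh, the hinge protein and the highest of the complex in FPKM, was at 94.8, 97.8 and 92.3 against 77.6, 80.0 and 90.0. The groups were separate by a narrow margin, with a log2 fold change of 0.20 (SE 0.06, adjusted p = 0.023), -0.36 after the centring, and an adjusted p of 0.059 to 0.075 without replicate 1 or 2 of either group. Uqcrq, named after its value was seen, was lower (-0.27, adjusted p = 0.032), and its adjusted p was 0.055 to 0.095 without cisplatin replicate 1 or 3 or control replicate 2 or 3. Uqcr10 (-0.08) and Uqcr11 (0.04) did not pass.

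In complex IV, cytochrome c oxidase, 13 of 18 members were tested, of which 2 were higher, 2 were lower and 9 did not pass. Each share was 15.4%, beside 27.5% and 29% of all tested genes. Cox7a2l, counted with complex IV by its symbol, was at 262, 261 and 253 FPKM in cisplatin libraries and 189, 186 and 210 in control libraries. All cisplatin libraries were above all control libraries. The log2 fold change was 0.41 (SE 0.05, adjusted p = 0.00051), and -0.15 after centring on T-cell identity genes. Cox4i1, the common isoform of subunit IV that takes part in allosteric control, was at 145, 150 and 146 against 119, 125 and 125. It was also higher without overlap, at 0.25 (SE 0.03, adjusted p = 0.00067), or -0.31 after the centring.

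Cox6a1 and Cox6c, both small nuclear subunits of complex IV, were lower. Cox6a1 was at 174, 188 and 162 FPKM in cisplatin libraries and 214, 253 and 229 in control libraries. The groups did not overlap, with a log2 fold change of -0.41 (SE 0.08, adjusted p = 0.0037). Cox6c, chosen after its value was seen, was at -0.34 (adjusted p = 0.00056). Cox8a, the highest member of all in mean FPKM, was at 249, 292 and 242 in cisplatin libraries and 282, 293 and 313 in control libraries. Its groups overlapped and it did not pass (-0.19, adjusted p = 0.083). Cox7c (-0.20), Cox7b (-0.03), Cox7a2 (-0.02), Cox5b (0.06), Cox5a (0.07) and Cox6b1 (0.08) did not pass either.

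For subunits of complex IV with isoforms for heart, muscle, lung or testis, most of the summed FPKM came from the common isoform. Cox8c had no read in any library. Cox4i2, Cox6a2, Cox7b2 and Cox8b had 0 to 16 reads a library and were not tested. Cox4i2 made up 0.139% ± 0.129 of the summed FPKM of Cox4i1 and Cox4i2 in cisplatin libraries and 0.145% ± 0.0951 in control libraries (SD, n = 3 each). Cox6b2 was at 1.83% ± 0.383 of Cox6b1 plus Cox6b2 against 1.69% ± 0.305. Cox7a1 was at 6.77% ± 2.10 of Cox7a1 plus Cox7a2 against 6.85% ± 2.38. For these 3 pairs the difference was smaller than the SD within each group, and the two-sided exact permutation p was 0.9 for Cox4i2, 0.8 for Cox6b2 and 0.9 for Cox7a1, where 0.1 is the smallest this design allows. As tested genes, Cox6b2 (0.17) and Cox7a1 (-0.03) did not pass.

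In ATP synthase, 4 of 17 tested members were higher, 1 was lower and 12 did not pass, with a median log2 fold change of -0.029. The shares of higher and lower members were 23.5% and 5.88%, beside 27.5% and 29% of all tested genes. In the catalytic F1 head, Atp5a1, the alpha subunit, was at 157, 162 and 158 FPKM in cisplatin libraries and 148, 147 and 150 in control libraries. The groups did not overlap although the difference was small, 0.10 on the log2 scale (SE 0.03, adjusted p = 0.020) and -0.47 after centring on T-cell identity genes, with an adjusted p of 0.068 without cisplatin replicate 2 and 0.064 without control replicate 2. Atp5b, the catalytic beta subunit, was at 142, 148 and 142 against 145, 152 and 148, and did not pass (-0.04, 95% interval -0.12 to 0.04). The gamma, delta and epsilon subunits Atp5c1 (0.02), Atp5d (-0.05) and Atp5e (0.28, adjusted p = 0.081) did not pass.

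The c ring of ATP synthase is built from a mature peptide encoded by 3 paralogs that differ in their targeting sequence. Atp5g3 was lower, at 47.8, 51.2 and 47.1 FPKM in cisplatin libraries and 54.2, 56.8 and 56.9 in control libraries. The groups did not overlap (-0.20, SE 0.04, adjusted p = 0.0061). Atp5g2 (-0.22, adjusted p = 0.091) and Atp5g1 (-0.14, adjusted p = 0.19) did not pass, and their groups overlapped. The makeup of the c pool differed by less than the SD within each group. Atp5g2 gave 58.5% ± 2.54 of the summed FPKM of the paralogs in cisplatin and 58.9% ± 2.22 in control libraries, Atp5g3 gave 37.0% ± 2.33 and 36.8% ± 1.49, and Atp5g1 gave 4.49% ± 0.242 and 4.32% ± 0.732 (SD, n = 3). The exact permutation p was 1 for Atp5g2, 0.9 for Atp5g3 and 0.8 for Atp5g1.

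The stalk and membrane subunits of ATP synthase held the other rises. Atp5l, subunit g, was at 5.31, 5.78 and 4.82 FPKM in cisplatin libraries and 3.68, 4.24 and 4.71 in control libraries. The lowest cisplatin library lay just above the highest control library (log2 fold change 0.33, SE 0.11, adjusted p = 0.041, and -0.23 after centring). The adjusted p was 0.087 to 0.13 without replicate 1 or 2 of either group, and 84.8% of its 50-base sequences occur in other genes, 12 of them processed pseudogenes. Atp5f1 (0.19, -0.38 after centring) and Atp5o (0.17, -0.39 after centring), both of the peripheral stalk, were also higher and were named after their values were seen. Atp5o passed only with all 6 libraries, since its adjusted p was 0.053 to 0.14 without any single one. A second row named Atp5o held no read. Atp5s, lowest in the complex at -0.28, did not pass, nor did Atp5h, Atp5j, Atp5j2, Atp5k and Atp5mpl, at -0.13 to 0.20.

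Reads of some members cannot be told apart from those of other genes. Of the 85 members, 47 share at least 1 sequence of 50 bases with another annotated gene and 32 share 1 with a processed pseudogene. Of the tested members, 21 share over 20% of such sequences or overlap another gene in over 10% of their exon bases. They include 4 of the 16 higher members (Atp5f1, Atp5l, Atp5o, Ndufb5), 4 of the 21 lower ones (Ndufb6, Ndufb9, Ndufs5, Uqcrb) and 13 of the 41 that did not pass. Ndufb6 overlaps Smim27 on the opposite strand in 39.0% of its exon bases. The gene lengths used for FPKM cover all exons of a gene and were a median of 1.65 times the median length of its coding transcripts, and 11.84 times for Atp5l. The order of members by FPKM rests on these lengths.

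The summed level of the members differed between groups by less than the libraries' ranges. They made up 1.126%, 1.178% and 1.108% of the summed FPKM of all genes in cisplatin libraries and 1.147%, 1.193% and 1.204% in control libraries. The groups overlapped, with means of 1.14% ± 0.0363 and 1.18% ± 0.0300 (SD, n = 3 each, exact permutation p = 0.2). Against protein-coding genes alone the order of the means turned, with 1.37% ± 0.0447 in cisplatin and 1.35% ± 0.0390 in control libraries (exact permutation p = 0.6). Among complexes the largest difference in the first measure was that of complex I, with 0.325% ± 0.0133 against 0.356% ± 0.0140 (exact permutation p = 0.2). Its highest cisplatin library and its lowest control library were both at 0.340%.

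**Figure D3:**
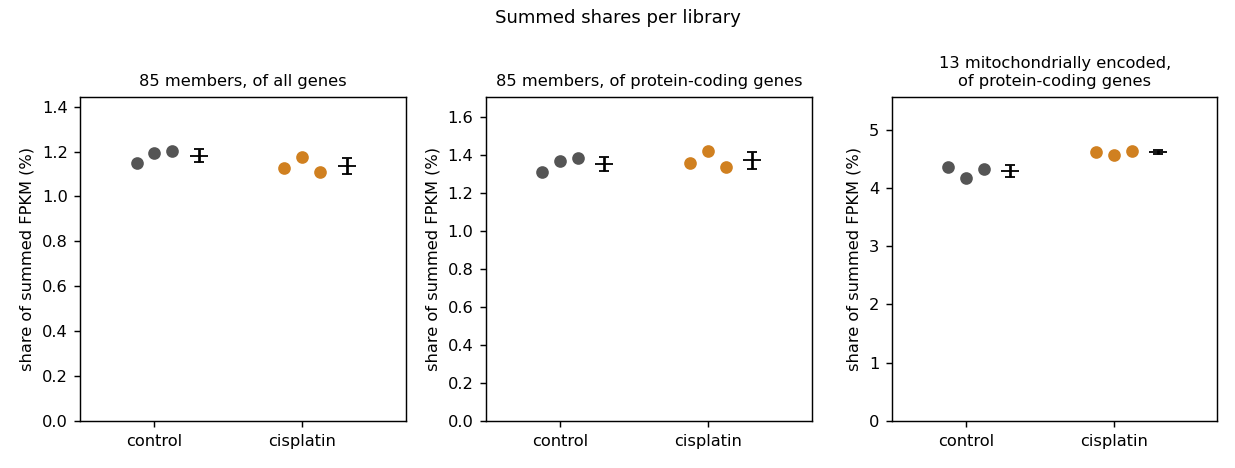
Share of summed FPKM per library for the 85 nuclear-encoded members among all genes (left) and among protein-coding genes (middle), and for the 13 mitochondrially encoded subunits among protein-coding genes (right). Points are libraries and bars are mean with SD of 3. The member shares overlap between groups, at 1.14% against 1.18% and 1.37% against 1.35%, while the mitochondrially encoded share was 4.61% in cisplatin and 4.28% in control libraries without overlap; of all genes, which the plot does not show, it was 3.82% and 3.74% with overlap.

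The 13 subunits encoded in mitochondrial DNA, partners of the members in complexes I, III, IV and ATP synthase, were 5 higher and 1 lower in deposited FPKM, with a median log2 fold change of 0.159, and -0.405 after centring on T-cell identity genes. The other 7 did not pass. The shares were 38.5% higher and 7.69% lower, beside 27.5% and 29% of all tested genes. Cytochrome b of complex III, mt-Cytb, was at 1778, 1816 and 1795 FPKM in cisplatin libraries and 1205, 1167 and 1243 in control libraries. It lay far above the controls in each library (0.58, SE 0.04, adjusted p = 2.7e-05, and 0.01 after the centring). The complex I subunits mt-Nd1 (0.45), mt-Nd2 (0.41) and mt-Nd4 (0.41) were higher too, and were at -0.11, -0.15 and -0.16 after the centring. Not all complex I subunits rose, since mt-Nd5 (0.01, adjusted p = 0.82, limma) and mt-Nd6 (-0.02, adjusted p = 0.8) did not pass. The catalytic subunit of complex IV, mt-Co1, was lower (5403, 5355 and 5309 against 6410, 6137 and 6407 FPKM, -0.24, adjusted p = 0.0056). In complex III the mitochondrial subunit was higher in deposited FPKM, while the nuclear core subunits had the intervals given above, and the difference between them was not tested. mt-Atp6 was higher by 0.16 (adjusted p = 0.040, and -0.41 after the centring), but 99.5% of its 50-base sequences occur in other annotated genes. That share was 98.0% or more for mt-Nd3, mt-Nd4l, mt-Co2 and mt-Co3 as well, whose FPKM lay between 3.71 and 30.9, so these values are uncertain. It was also 62.2% for mt-Nd4 and 51.1% for mt-Co1, whose values are uncertain for the same reason. The 13 genes made up 3.82% ± 0.0301 of the summed FPKM of all genes in cisplatin and 3.74% ± 0.0945 in control libraries, with overlapping groups (SD, n = 3 each, exact permutation p = 0.2). Against protein-coding genes alone they made up 4.61% ± 0.0337 and 4.28% ± 0.102, without overlap (exact permutation p = 0.1, the smallest this design allows). Summed over the 13 genes, the ratio to the 85 members was 3.36 ± 0.132 in cisplatin and 3.17 ± 0.143 in control libraries (exact permutation p = 0.2).

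Assembly factors, which build the complexes without staying in them, counted rises and falls. Of 48 tested, 11 were higher and 8 were lower, with a median log2 fold change of 0.073, and -0.491 after centring. Both shares, 22.9% and 16.7%, were below the 27.5% and 29% of all tested genes. Uqcc2, needed for cytochrome b in complex III, was at 15.7 ± 0.758 FPKM in cisplatin and 35.8 ± 3.88 in control libraries (SD, n = 3), a log2 fold change of -1.18. Uqcc3, of the same assembly pathway, moved the other way (0.42, and -0.14 after centring). Sdhaf1 was at 0.71 (adjusted p = 0.015) and Sdhaf4 at -0.50 (adjusted p = 0.010), both factors of complex II. These assembly factors were picked after their values were seen.

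Enzymes of the TCA cycle, which feeds the chain, had values closer to 0 than glycolytic genes. Of 13 enzymes of the TCA cycle, 4 were lower, among them Suclg2 (-0.44), Fh1 (-0.20) and Mdh2 (-0.19), and the other 9 did not pass. That share of lower enzymes, 30.8%, was near the 29% of all tested genes. The median was -0.108. All 19 glycolytic genes were lower, 18 of them by more than 2-fold, with a median log2 fold change of -2.079. Pgk1, which makes ATP in glycolysis, was at 182 ± 2.04 FPKM in cisplatin and 1042 ± 25.3 in control libraries, and Ldha, which turns pyruvate into lactate, at 160 ± 0.709 and 500.2 ± 11.2. Of 15 hypoxia targets, 13 were lower and 1 was higher (median -1.861). ID8 markers fell in the same libraries with a median of -2.305, as given above, and their part in the glycolytic and hypoxia values was not tested. All 4 lists were also below 0 in the median after centring on T-cell identity genes.

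**Figure D4:**
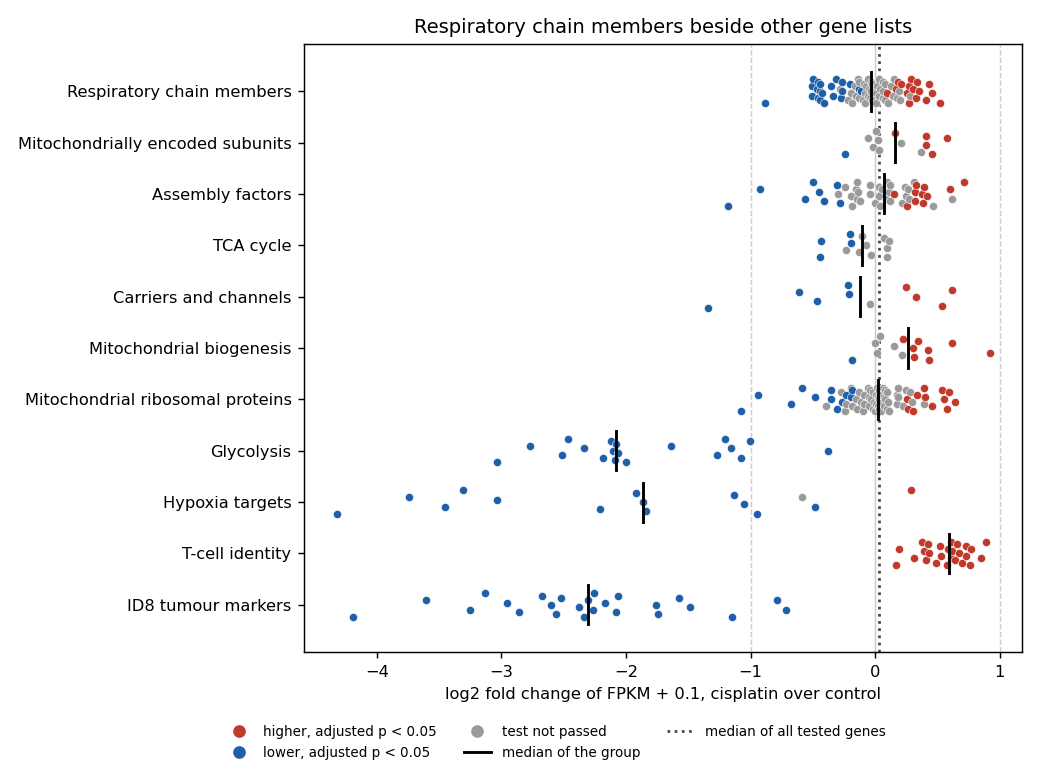
Log2 fold changes (cisplatin over control, log2 of FPKM + 0.1) of the tested genes of each list. Points are genes, coloured by the limma call, black bars are list medians, the dotted line is the median of all tested genes and dashed lines mark a fold change of 2. The members lie between -0.88 and 0.52 around a median of -0.035, while glycolysis has its median at -2.079, ID8 markers at -2.305 and T-cell identity genes at 0.597; centred on the latter, the members' median is -0.599.

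Carriers of substrates went both ways, while more genes of mitochondrial biogenesis were higher than lower in deposited FPKM. Among 10 carriers, channels and electron carriers, 4 were higher and 5 were lower. As shares this was 40% and 50%, beside 27.5% and 29% of all tested genes. Slc25a5, an ADP/ATP carrier of the inner membrane, was at 209.8 ± 4.13 FPKM in cisplatin and 144.6 ± 6.39 in control libraries (0.54, and -0.03 after centring). Vdac1, the main channel of the outer membrane, was at 53.7 ± 1.12 against 136.0 ± 1.83 (-1.34). Of 14 tested biogenesis genes, 8 (57.1%) were higher and 1 (7.14%) was lower, with a median of 0.268, or -0.296 after the centring. Among the tested ones, the coactivators Ppargc1b (0.92) and Pprc1 (0.62) had the highest values. The coactivator Ppargc1a lay below the filter, at 0.155, 0.101 and 0.112 FPKM in cisplatin libraries and 0.323, 0.309 and 0.311 in control libraries. Of the factors whose cores were searched above, Nrf1, Gabpa and Yy1 are on this list, and they did not pass. Gabpa was at 0.04 and Yy1 at 0.01, with overlapping groups. Nrf1 was at 0.155 (adjusted p = 0.072, limma), and its groups did not overlap. Mitochondrial ribosomal proteins counted 12 higher and 12 lower of 77 tested (median 0.025), and cytosolic ribosomal proteins 66 higher and 3 lower of 92 (median 0.345, or -0.219 after the centring). The former shares were 15.6% each, below those of all tested genes, and the latter 71.7% and 3.26%.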

How the data were processed

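Poly(A) RNA of co-cultured T cells was sequenced in 6 libraries. The authors deposited FPKM per gene. The labels name fastp, HISAT2 2.0.5, featureCounts 1.5.0-p3 and mm10, whereas the study's methods name LifeScope and a count-based test. Strand and multi-mapping settings are not given in the sources used here. The table's gene coordinates were those of GENCODE M21 (GRCm38) for 79 of 85 members. The table held 0 columns of other samples.

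The unit was FPKM, so log2(FPKM + 0.1) was fitted in limma 3.58.1 (R 4.3.3; eBayes with trend) for 15874 genes, those averaging 0.5 FPKM or more, with Benjamini-Hochberg adjustment, at an adjusted p under 0.05. Fold changes on this scale are understated for low genes. Reads were rebuilt from FPKM and gene length, and 100% of the values came out whole within 0.1 read. The denominators behind the FPKM were 1.03 to 1.05 times these reads in cisplatin and 0.976 to 0.982 times in control libraries. The reads give depth, with a floor of 3 reads, and cover counting error only. Replicates differed beyond counting noise (chi-square per degree of freedom 5.35 to 6.44). Shares of summed FPKM were compared by two-sided exact permutation tests. Tables and figures used python 3.11.15, numpy 2.4.6, pandas 2.3.3 and matplotlib 3.10.9.

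Named members were the lowest, the highest and the most abundant of each complex, any past a fold change of 2, the core, catalytic and c-paralog lists, complex II and the isoform pairs. Some genes of these lists are not reported here by name. Members, lists and tests were chosen with earlier results of these data known. The fit was tested on simulated data with known changes. Alternatives were other pseudocounts, filters, scalings and denominators, no trend, protein-coding genes alone, voom on rebuilt reads, a replicate block and leaving out each library.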

Additional observations from a re-analysis of the deposited data

How the results depend on the processing

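For named members, most values (579 of 697) kept their direction and their side of the threshold. Centring on T-cell identity genes changed most, giving 0 higher members (at any p, since all 78 lay below 0), 71 lower, 10 past a fold change of 2 and a median of -0.599. With it, 4.9% of all tested genes were higher and 65.5% were lower. Apart from this centring and from leaving out libraries, higher members numbered 11 (no filter) to 24 (voom) and lower ones 17 to 23. Voom, with its own scaling, kept 15 of the 16 higher members. Under the centring all 16 higher members turned below 0, with the values given in the report. Among the members named by rule, whether they passed or not, the log2 fold changes turned for Atp5a1 (-0.469), Atp5c1 (-0.549), Atp5e (-0.285), Atp5l (-0.235), Ndufb2 (-0.046), Ndufs3 (-0.532), Ndufs8 (-0.11), Ndufv1 (-0.485), Sdha (-0.503), Sdhb (-0.127), Uqcrc2 (-0.556), Uqcrfs1 (-0.556), Uqcrh (-0.359), Cox4i1 (-0.31), Cox6b1 (-0.486), Cox6b2 (-0.39) and Cox7a2l (-0.153). The turns of named members under other settings were of values that had not passed the test. With voom the median was 0.049, and Atp5b (0.045), Atp5d (0.037), Sdhd (0.01), Uqcrc1 (0.03), Cox7a1 (0.056), Cox7a2 (0.061) and Cox7b (0.056) turned. With quantile normalization the median was 0.034, and Atp5g1 (0.022), Ndufs1 (0.016), Uqcrc1 (0.006), Cox7a1 (0.161), Cox7a2 (0.029) and Cox7b (0.032) turned. TPM turned Atp5c1 (-0.005), Uqcrc2 (-0.013) and Uqcrfs1 (-0.012), and median of ratios turned Uqcrc2 (-0.002) and Uqcrfs1 (-0.002).

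Leaving out each library gave 10 to 16 higher members (10 without cisplatin replicate 2), 16 to 23 lower, 0 past a fold change of 2 and medians of -0.065 to -0.009. The difference of the member share stayed between -0.06471 and -0.02969 percentage points and that of the mitochondrially encoded share between 0.02391 and 0.1148. Without 1 library, values that straddled 0 ran from -0.027 to 0.062 for Uqcrc2, -0.044 to 0.044 for Uqcrfs1, -0.034 to 0.31 for Cox6b2, -0.265 to 0.239 for Cox7a1, -0.09 to 0.019 for Cox7a2 and -0.089 to 0.003 for Cox7b. In all 6 such fits, 10 of the 16 higher and 15 of the 21 lower members passed. With protein-coding genes as the denominator the member share differed by 0.02027 and the mitochondrially encoded share by 0.3272 percentage points, and without cytosolic ribosomal proteins the latter by 0.1967.

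The labels number the replicates 1 to 3 in each group, but same-numbered libraries did not deviate together (correlations 0.023, -0.063 and -0.021). These correlations cannot show whether same-numbered libraries came from one mouse or culture, which the labels do not say. The main fit left them unpaired. With the replicate block, 13 of the 16 higher and 19 of the 21 lower members kept their call, and the median stayed at -0.035. The causes of these changes were not tested. The members held a median of 1626 rebuilt reads, and depth limits mainly the untested isoforms, at 0 to 30 reads.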

Other observations

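Rows with member-like names but another biotype were left out of the counts by the rule, and 12 such rows were in the table. Most held few reads. Ndufb1-ps, listed as a bidirectional promoter RNA, was at 8.17, 11.7 and 12.8 FPKM in cisplatin libraries and 8.002, 11.4 and 11.1 in control libraries, levels like those of several coding subunits, with overlapping groups. Cox6c2, a processed pseudogene that shares 9.0% of the 50-base sequences of Cox6c, was at 2.81, 5.88 and 4.27 FPKM against 4.47, 7.94 and 10.02, again with overlap. Cox6c itself was lower, as given above.

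Levels of members differ in their order when the length behind FPKM is changed. Per length of the median coding transcript, Atp5b had the highest control level (327.4, from 148 FPKM) and Cox8a came next (293.7, from 296 FPKM). Ndufb2 remained the lowest tested member on this measure, at 1.8, with Ndufb10 at 75.0.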
